A study of Mus musculus with 22 samples.

Results

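The comparison described here sets 6 single mouse cortical astrocytes that answered ethanol (EtOH) with a transient calcium signal (T-type) against 5 astrocytes that did not answer it (NR, labelled No Response). These 11 cells were part of the 22 cells sequenced, the others being 6 S-type cells with a slow rise and slow decay and 5 M-type cells with a mixed signal. Genes entered the comparison when at least 9 of the 11 cells held a read, which kept 7299 of the 23453 genes in the count table. Every cell came from primary cortical astrocyte cultures of C57BL/6 pups of postnatal day 0 to 1. The cultures were shaken for 6 h and exposed to 10 µM cytosine arabinoside for 12 h to deplete other cells, and serum was withdrawn 24 h before imaging. All cells of both types were loaded with the calcium dye Fluo-4 and received acute EtOH on the microscope, so the NR cells are not an untreated control. Each imaged cell was then picked with a micropipette and frozen. The labels describe ATP, a calcium-mobilizing agonist, as given at the end of each imaging experiment to scale the signals, and whether a cell was picked before or after it is not stated. No transgene is named for either group, and the labels do not say which pup or culture a cell came from. Each type therefore counts as 1 sample, no test was made between the types, and differences are given with the values of the single cells and with the range obtained when each cell is left out in turn. In whole-cell RNA of this kind, fewer molecules of a gene and less RNA in the cell cannot be told apart.

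Astrocytes are electrically quiet glial cells that signal through rises in cytosolic calcium. In the classical route a Gq-coupled receptor activates phospholipase C, inositol trisphosphate opens its receptors on the endoplasmic reticulum (ER), and pumps and exchangers then clear the calcium from the cytosol. The same cells recycle glutamate, supply lactate, build extracellular matrix and, in newborn cultures, still divide. The ribosomal protein genes, which held 8 of the 24 genes that separated all T-type from all NR cells upwards, encode the protein subunits of the ribosome, and their transcripts typically begin within a run of pyrimidines, the feature through which their translation is coupled to growth signals.

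The library totals ranged from 2937786 to 19279519 exonic reads in T-type cells and from 15057892 to 19930655 in NR cells. Reads were divided by a size factor for each cell, which ranged from 0.183 to 1.56 in T-type cells and from 1.08 to 1.76 in NR cells. A level below is a read count divided by this factor (a normalized count), and a ratio is the log2 of the mean level of the T-type cells over that of the NR cells. T-type cells 2 and 3 had the smallest factors, 0.276 and 0.183. A gene of the comparison was read in every cell of its type for 55.9% of genes among T-type cells and for 92.5% among NR cells. One cell held the majority of the T-type level for 56.4% of genes, against 37.9% for the NR level. The types thus differed in depth, in genes read and in evenness as well as in calcium response. These and type cannot be told apart where they move together. With all libraries thinned to the smallest total, 1539 of 6065 genes were at least 2-fold higher in T-type cells and 1175 lower. Thinning evened the library totals only.

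The cells carried astrocyte transcripts. The 40 astrocyte identity genes, of which 34 passed the filter, took 2.64 to 3.87% of the reads of T-type cells and 1.57 to 5.59% of those of NR cells. Vimentin (Vim), the intermediate filament of immature astrocytes, was read at 107808, 199002 and 395460 in T-type cells (lowest, median and highest) and at 163744, 59896, 80528, 42596 and 72942 in NR cells 1 to 5. Its ratio was 1.30, and it stayed between 1.00 and 1.69 without any 1 cell. The glutamate transporter Slc1a2 lay on the other side, at 2.59, 11.1 and 1740 in T-type cells and at 7724, 13834, 1455, 398 and 27943 in NR cells, a ratio of -5.11 that was -10.04 without T-type cell 3. That cell alone reached into the NR range, and the other T-type cells lay at 16.7 and below. Glial fibrillary acidic protein (Gfap), the filament of mature and reactive astrocytes, was at 1.3, 93.6 and 917 against 521, 11046, 2906, 746 and 62.1, and here NR cells 1, 4 and 5 lay within the T-type range. The secreted astrocyte products Cpe and Cst3 had ratios of -0.16 and -0.03 and overlapped widely. Of the 34 genes, 7 (20.6%) were at least 2-fold higher and 8 (23.5%) at least 2-fold lower in T-type cells, with a median ratio of -0.16. The shares of all genes compared were 29.3% and 20.6%. Both types thus carried transcripts of the identity list as a whole, while the T-type cells other than cell 3 held low levels of Slc1a2. Low Slc1a2 was also found outside the T-type, at 20.4 in S-type cell 5.

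Markers of microglia, endothelium and neurons were scarce. None of 13 microglia genes and none of 6 endothelial genes passed the filter, and these lists took at most 0.0151% of the reads of any NR cell and 0.0200% of those of any T-type cell. The oligodendrocyte lineage list took 0.0212 to 0.333% of T-type reads and 0.0212 to 0.0492% of NR reads, with 3 of 10 genes passing. Among these Olig1, a transcription factor also present in glial progenitors, was at 2239, 12341 and 51305 in T-type cells and at 4586, 2778, 2183, 4184 and 6901 in NR cells (ratio 2.03, 1.27 to 2.29 without any 1 cell). Neuronal genes took 0.0038 to 0.0431% of T-type reads and 0.0092 to 0.0611% of NR reads, with 2 of 10 genes passing. The mural and fibroblast list (2 of 9 genes passing) took 0.0115 to 0.513% and 0.0220 to 0.217%, on the actin-associated Tagln and smooth muscle actin (Acta2), which cultured astrocytes can also make. Acta2 stood at 4255, 14507 and 103133 in T-type cells and at 132, 7630, 3338, 16193 and 203 in NR cells, and Tagln at 725, 3774 and 10102 against 106, 1542, 1315, 8291 and 4407. Acta2 was thus read at high levels, and the median ratio of the pair was 1.58 (1.01 to 2.44 without any 1 cell), beside 1.62 for the S-type and 1.35 for the M-type cells against the same NR cells.

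Across all genes, 2142 of 7299 (29.3%) were at least 2-fold higher in T-type cells and 1504 (20.6%) at least 2-fold lower. The median ratio over all genes was 0.22. This balance depended on how the cells were averaged. Of the genes past 2-fold, 58.7% were higher in T-type cells with mean levels, 38.0% with counts scaled to the library total (CPM), 35.9% with the median over cells and 25.1% with geometric means, for which the median ratio of all genes was -0.75. The share of genes in either direction thus depended on the averaging, and each list below is read against the value of all genes. Genes that stayed past 2-fold without any 1 cell numbered 710 (9.73%) in each direction. In 24 genes (0.329%) every T-type cell lay above every NR cell, and in 36 (0.493%) every T-type cell lay below. This too depended on the scaling, since 12 of the 24 and 32 of the 36 kept the separation with TMM factors (library totals rescaled by a trimmed mean of gene ratios), and 2 of the 24 (Rab27b and Rpl36a) and 32 of the 36 kept it with CPM. Against the same NR cells, the S-type cells had 17% of genes at least 2-fold higher and 16.2% lower, and the M-type cells 12.3% and 20.2%. Genes without overlap numbered 17 above (0.233%) and 16 below (0.219%) for the 6 S-type cells and 25 above (0.343%) and 28 below (0.384%) for the 5 M-type cells. The T-type count of genes without overlap was thus of the same order as that of the other types.

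**Figure D1:**
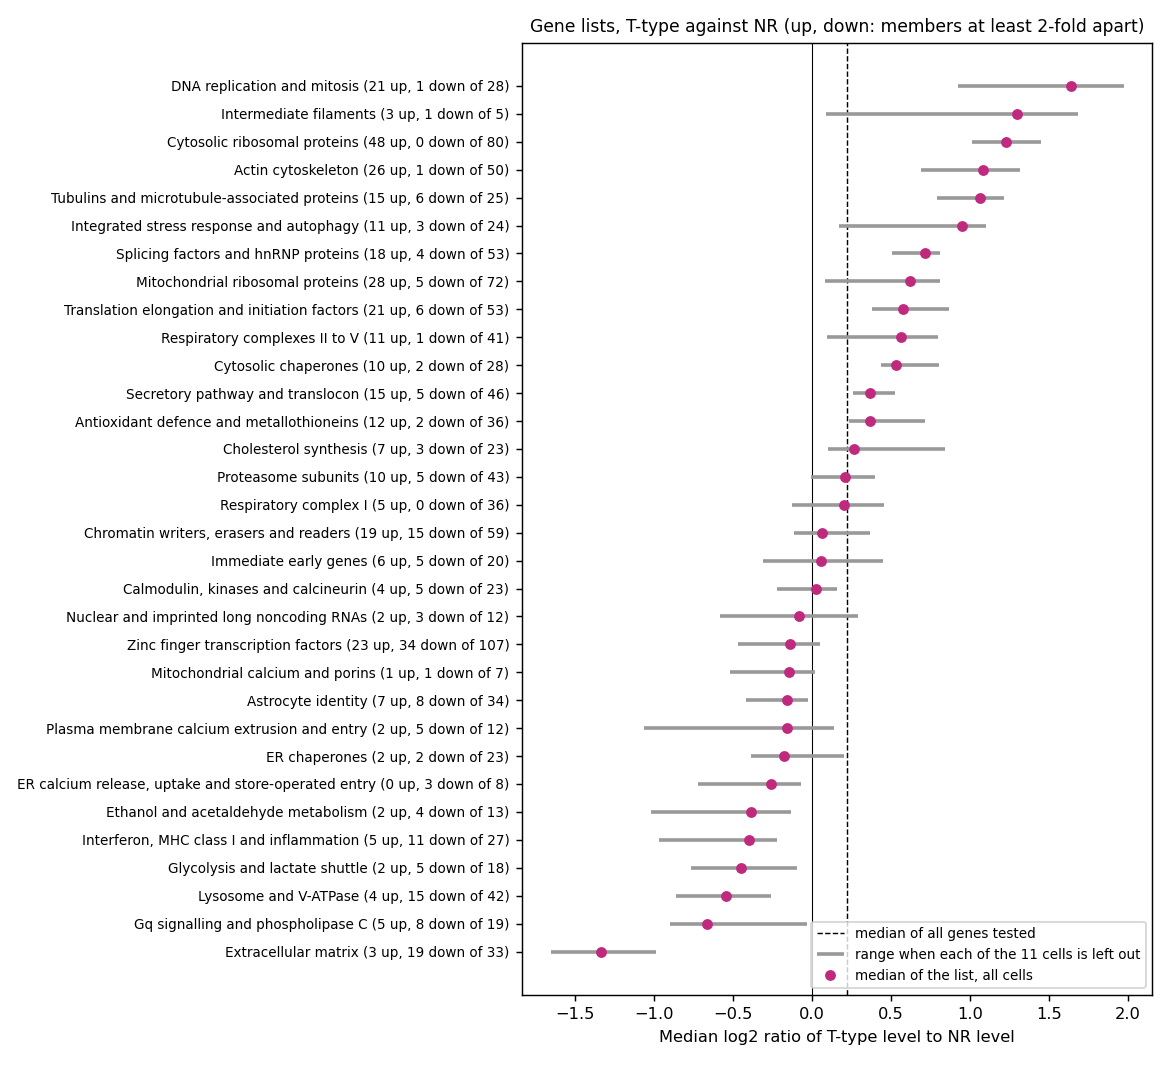
Median log2 ratio of T-type to NR level for gene lists with at least 5 members tested (points), with the range of that median when each of the 11 cells was left out (bars) and the median of all genes tested at 0.22 (dashed). Ribosomal proteins, DNA replication and the actin and tubulin cytoskeleton lie to the right of it, and extracellular matrix, lysosome and glycolysis lie to the left of 0.

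The cytosolic ribosomal protein genes were higher in T-type cells. Of 86 genes, the paralogues Rpl7l1, Rpl22l1 and Rps27l among them, 80 passed the filter, 76 had a ratio above 0 (55.8% of all genes did), 48 were at least 2-fold higher and 0 at least 2-fold lower, against the 29.3% and 20.6% of all genes. Their median ratio was 1.23, between 1.01 without T-type cell 2 and 1.45 without NR cell 4. With geometric means it was 1.11 while that of all genes was -0.75. In genes both short and abundant, as set out below, the geometric medians were 1.03 for ribosomal protein genes and 0.22 for others. With CPM the median of the family was 0.72 while that of all genes was -0.21, and with thinned libraries it was 1.07. Together the ribosomal protein genes took 3.19 to 8.01% of reads in T-type cells and 1.75 to 5.59% in NR cells. The ranges overlapped, with NR cell 4 at 5.59% lying above the T-type median of 4.96%. The S-type cells took 2.58 to 5.24% and the M-type cells 2.72 to 8.12%. Beside the same NR cells, the median ratio of these genes was 0.06 for the S-type and 0.44 for the M-type cells.

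In 8 ribosomal protein genes every T-type cell lay above every NR cell, out of the 24 such genes in the whole comparison. With TMM factors 5 of the 8 kept this separation (Rpl21, Rpl24, Rpl36a, Rps20 and Rps7), and with CPM Rpl36a alone did. Without NR cell 4 the family had 23 genes without overlap and without T-type cell 3 it had 14. Rpl24, a protein of the large subunit on chromosome 16 (55966275 to 55971435, GRCm38), was at 7177, 7979 and 19158 in T-type cells and at 1138, 1926, 1868, 3451 and 2072 in NR cells. Its mean was 4.86-fold higher (ratio 2.28, 2.00 to 2.54 without any 1 cell), resting on 45785 reads in T-type cells (exact Poisson 95% interval 45367 to 46206, counting error only) and 15872 in NR cells (15626 to 16121). Its 6 T-type cells also lay above all S-type cells, which reached 6530, and above all M-type cells, which reached 3750. Rps20, of the small subunit, was at 10985, 13723 and 99761 against 3572, 4420, 3003, 7821 and 7747 (ratio 2.44). The top T-type value was that of cell 2, without which the ratio was 1.46. Rpl36a was at 7396, 9255 and 21600 against 1958, 2644, 2000, 3952 and 834 (ratio 2.30), and Rps7 at 11093, 18843 and 23834 against 5965, 7415, 3574, 4481 and 5596 (ratio 1.72). Both kept a gap between the types with no single cell carrying it. The other members of this set, Rpl21, Rps12, Rps21 and Rpl8, had ratios of 1.58, 1.49, 1.48 and 1.44.

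The family was not uniform. Rps18 had the largest ratio, 3.17, with 6987, 13361 and 117596 in T-type cells and 2678, 4001, 1372, 7243 and 1556 in NR cells, and it was 1.94 without T-type cell 2. Rps4x, the most abundant member, was at 13699, 20129 and 316113 against 11906, 17677, 17239, 26782 and 17299. Its ratio of 1.98 became 0.34 without T-type cell 2, so this value came from 1 cell. Rpl7 was at 24349, 43513 and 65560 against 21597, 29452, 17758, 38834 and 15505 with a ratio of 0.90, and Rps23 had 2.70 with all cells and 1.00 without T-type cell 2. Rpl34 lay lowest at -0.58, at levels of 22.5, 66.5 and 537 against 38.9, 104, 337, 783 and 36.2. Ribosomal protein genes have many processed copies in the genome, and reads that align to several places were not counted, so the level of a single member is less certain than that of the set.

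**Figure D2:**
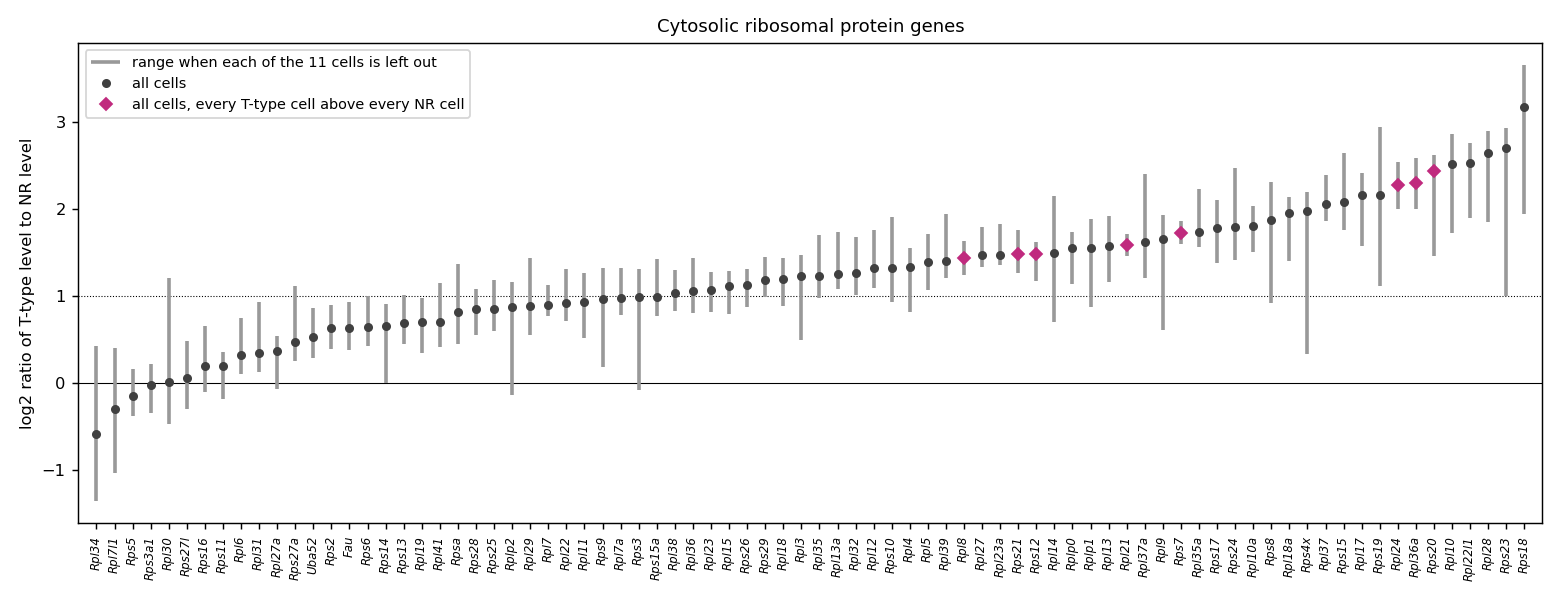
Log2 ratio of T-type to NR level for each of the 80 cytosolic ribosomal protein genes tested, ordered by ratio (points), with the range when each of the 11 cells was left out (bars). Diamonds mark the 8 genes in which every T-type cell lay above every NR cell, and the dotted line marks 2-fold.

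The promoter records of RefSeq (GRCm38.p6) held 59 of the 80 genes and 5 of the 8 that did not overlap between the types. On the strand that reads as the transcript, a run of at least 8 pyrimidines (letters C or T only) was searched for. It lay within 50 bases before or after the annotated start in 49 of these 59 genes (83.1%), so it need not lie within the transcript. The same held for 2095 of the 5574 tested genes with a record (37.6%) and for 10614 of all 27025 genes with a record (39.3%). Within the family it held for 31 of 35 genes at least 2-fold higher (88.6%) and for 18 of 24 within 2-fold (75.0%). The 5 windows are shown because they come from the genes that separated the cells, 4 with the run and Rpl24 without it, with the longest pyrimidine run in capitals and the rest in lower case.
Rpl36a, chrX:134585672-134585701, plus strand: cggctctagCCTCTCTCTTTCCgagctgct
Rps7, chr12:28635911-28635940, minus strand: ctgtccccaCCTCTTTTCTTCCgccacccg
Rps12, chr10:23787182-23787211, minus strand: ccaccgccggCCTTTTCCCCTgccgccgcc
Rps21, chr2:180257399-180257428, plus strand: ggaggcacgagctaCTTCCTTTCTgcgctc
Rpl24, chr16:55966227-55966256, plus strand: acctcaaacccaCTCCCCgccaatgctgta
Rpl36a and Rps7 hold runs of 13 letters, Rps12 of 11 and Rps21 of 10, while the window of Rpl24 holds 6 and falls short of the 8 searched for. Counted from the annotated start, the runs of the first 4 begin at bases 28, 23, 9 and 35, so they lie near the start and not at it. Rps21 has another annotated start, from which the same run begins at base -36, upstream of it. The run is therefore a feature of the family, present in members on both sides of the 2-fold line.

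Ribosomal protein transcripts are short and abundant, so the ratio was set against transcript length and level. The genes of the shortest quintile (longest annotated transcript of 86 to 1962 bases) had a median ratio of 0.62, and the following quintiles had 0.34, 0.24, -0.02 and, for transcripts of 5497 bases and more, -0.17. The S-type ratio to the same NR cells ran from -0.04 to 0.04 across these quintiles, and the M-type ratio was -0.00022 in the shortest and -0.21, -0.11, -0.21 and -0.22 in the 4 longer ones. Levels in the S- and M-type cells, which the ratio does not use, gave no such order, with medians of 0.32, 0.15, -0.04, 0.19 and 0.42 from the lowest to the highest quintile. Among genes in the shortest and, by S- and M-type level, the most abundant quintile, the 52 ribosomal protein genes had a median of 1.24. Of them 59.6% were at least 2-fold higher, and the 265 other genes had 0.42 and 32.5%. With geometric means these medians were 1.03 and 0.22. Respiratory complex I, whose 36 tested genes have a median transcript of 1093.5 bases against 1100 for ribosomal proteins, had 5 genes at least 2-fold higher, 0 lower and a median of 0.20. Short length therefore went with a higher ratio in T-type cells, and the most abundant quintile had the highest median in both orderings by level. Ribosomal protein genes lay above other short and abundant genes. Why length or level moved with the ratio was not tested.

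**Figure D3:**
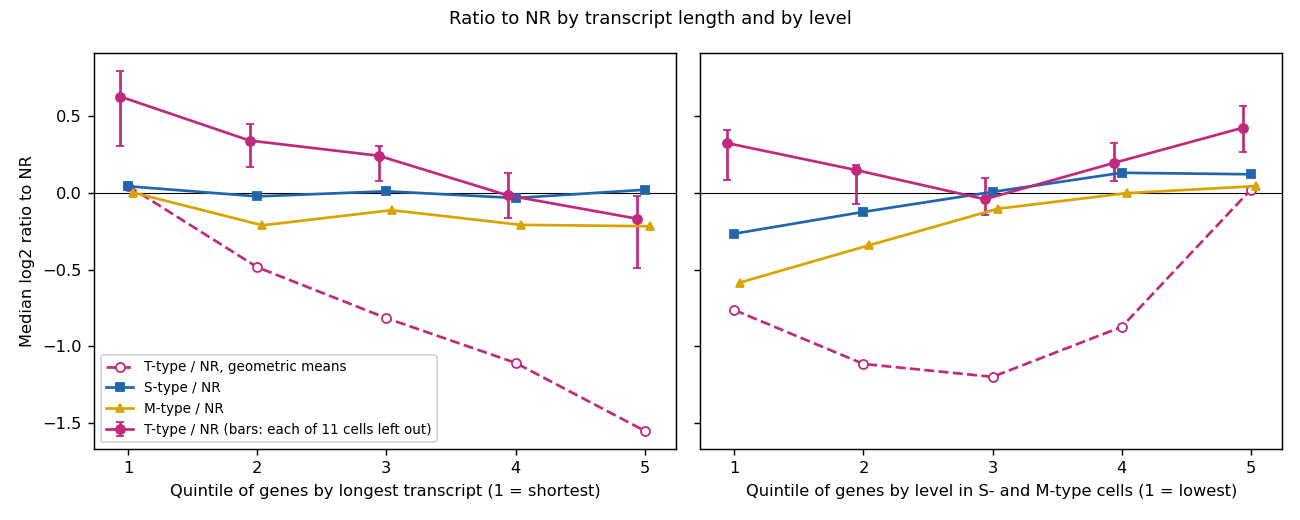
Median log2 ratio to NR for quintiles of genes ordered by transcript length (left) and by mean level in S- and M-type cells (right), for T-type cells with mean levels (filled circles, bars show the range when each of 11 cells was left out) and geometric means (open circles), S-type (squares) and M-type cells (triangles). The T-type medians run from 0.62 for the shortest to -0.17 for the longest quintile, and the S- and M-type lines at right are not independent of the ordering, which uses their own levels.

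Translation factors leaned to the same side, and cytosolic chaperones did so less. Of 53 translation initiation and elongation factors 21 (39.6%) were at least 2-fold higher and 6 (11.3%) lower, with a median of 0.58, against the 29.3% and 20.6% of all genes. Eef1a1, which delivers aminoacyl-tRNA to the ribosome, was at 21873, 76324 and 148934 in T-type cells and at 39809, 27159, 38812, 67775 and 85990 in NR cells. Eef1b2, its exchange factor, was at 14735, 25324 and 104033 against 19157, 13171, 11061, 25071 and 23612, a ratio of 1.27 that was 0.82 without T-type cell 1. Both overlapped between the types. Eif5b, which joins the ribosomal subunits, had 3.26, and 2.01 without T-type cell 2. Eif2ak4, the kinase that halts initiation when amino acids are short, had the lowest ratio at -3.74 (-2.13 without NR cell 3), with 0, 21.8 and 193 against 535, 370.4, 3109, 15 and 186.3. Cytosolic chaperones had 10 of 28 genes higher (35.7%) and 2 lower (7.14%). Of the 10, 2 stayed past 2-fold without any 1 cell. The list median was 0.53 beside 0.22 for all genes. With geometric means it was -0.07 beside -0.75 for all genes. Hsp90ab1, the constitutive form of the chaperone HSP90, was at 21379, 59567 and 154334 in T-type cells and at 6165, 14255, 14528, 35130 and 9919 in NR cells, where cell 4 alone reached into the T-type range. Its inducible partner Hsp90aa1 was at 16773, 33664 and 169591 against 6899, 11603, 12946, 16610 and 28166. ER chaperones had 2 of 23 higher and 2 lower with a median of -0.18. Splicing factors had 18 of 53 higher and 4 lower (0.72), mitochondrial ribosomal proteins 28 of 72 and 5 (0.62), respiratory complexes II to V 11 of 41 and 1 (0.56), and proteasome subunits 10 of 43 and 5 (0.21).

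The actin and tubulin cytoskeleton also lay on the higher side. Of 50 actin cytoskeleton genes 26 (52%) were at least 2-fold higher and 1 (2%) lower, against 29.3% and 20.6% of all genes. Their median was 1.08, and 0.32 with CPM and 0.48 with geometric means, where those of all genes were -0.21 and -0.75. Against the same NR cells the median of the actin list was 0.34 for the S-type and 0.46 for the M-type cells. NR cell 4 had the highest actin share of the 11 cells, 4.17%. The mural markers Acta2 and Tagln are among the 50, with ratios of 2.55 and 0.60, and their part in this result was not tested. Tmsb4x, which binds actin monomers, was at 20100, 79448 and 897854 in T-type cells and at 39784, 34568, 31313, 73373 and 41211 in NR cells. Cytoplasmic actin itself, Actb, was at 15036, 29755 and 64487 against 5825, 18989, 18708, 45936 and 24804, a ratio of 0.62. Cotl1, which binds actin filaments, was at 2071, 3250 and 20791 against 1210, 913, 1594, 722 and 1704 and did not overlap. Capzb, which caps filaments, and Tpm3, which coats them, also did not overlap, with ratios of 1.41 (0.92 without T-type cell 4) and 1.36. Vinculin (Vcl), the linker of actin to adhesion sites, was the gene of the list past 2-fold on the lower side, at 14.5, 2197 and 13740 against 7909, 6126, 12489, 7512 and 16706. Tubulins and microtubule proteins had 15 of 25 higher and 6 lower (median 1.07, and 0.22 with medians over cells). The α-tubulins Tuba1a and Tuba1b had ratios of 1.67 and 1.99, and the motor Kif5b had 1.84 (0.75 without T-type cell 1), with the tubulins at 0.79 and 1.00 without T-type cell 2. Map1a, which stabilizes microtubules, went the other way without overlap, at 0, 4.55 and 104 in T-type cells and 299, 552, 156.05, 120.2 and 2873 in NR cells.

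Genes of DNA replication and mitosis had the highest median ratio of the lists. Of 63 genes 28 passed the filter. Of these 21 (75%) were at least 2-fold higher and 1 (3.57%) lower, against 29.3% and 20.6% of all genes. Their median was 1.64 (0.93 to 1.97 without any 1 cell). They took 0.188 to 1.58% of reads in T-type cells and 0.194 to 0.471% in NR cells. Mcm4, a subunit of the replicative helicase, was at 3.63, 2256 and 26921 in T-type cells and at 3.04, 131, 2.16, 10.8 and 0 in NR cells. T-type cell 2 lay within the NR range and the other 5 T-type cells lay at 1463 and above, for a ratio of 7.74 (6.19 to 10.62 without any 1 cell). Rfc3, of the clamp loader, and Cdk4, the kinase of the G1 phase, had 5.91 (4.47 without T-type cell 5) and 2.06. The cyclins of that phase, Ccnd1 and Ccnd2, overlapped between the types, the latter at 8318, 24241 and 61592 against 10489, 7303, 8998, 25566 and 14959. Rpa1, which covers single-stranded DNA, was at 1207, 9034 and 20193 against 1736, 4526, 1878, 5084 and 3475. Anp32e, a chaperone of the histone variant H2A.Z, was at 4501, 6748 and 20640 against 1033, 2555, 2472, 441 and 262 and did not overlap. The S-type cells also had a high median for this list beside the same NR cells, 2.04, so a high value was not particular to the T-type.

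**Figure D4:**
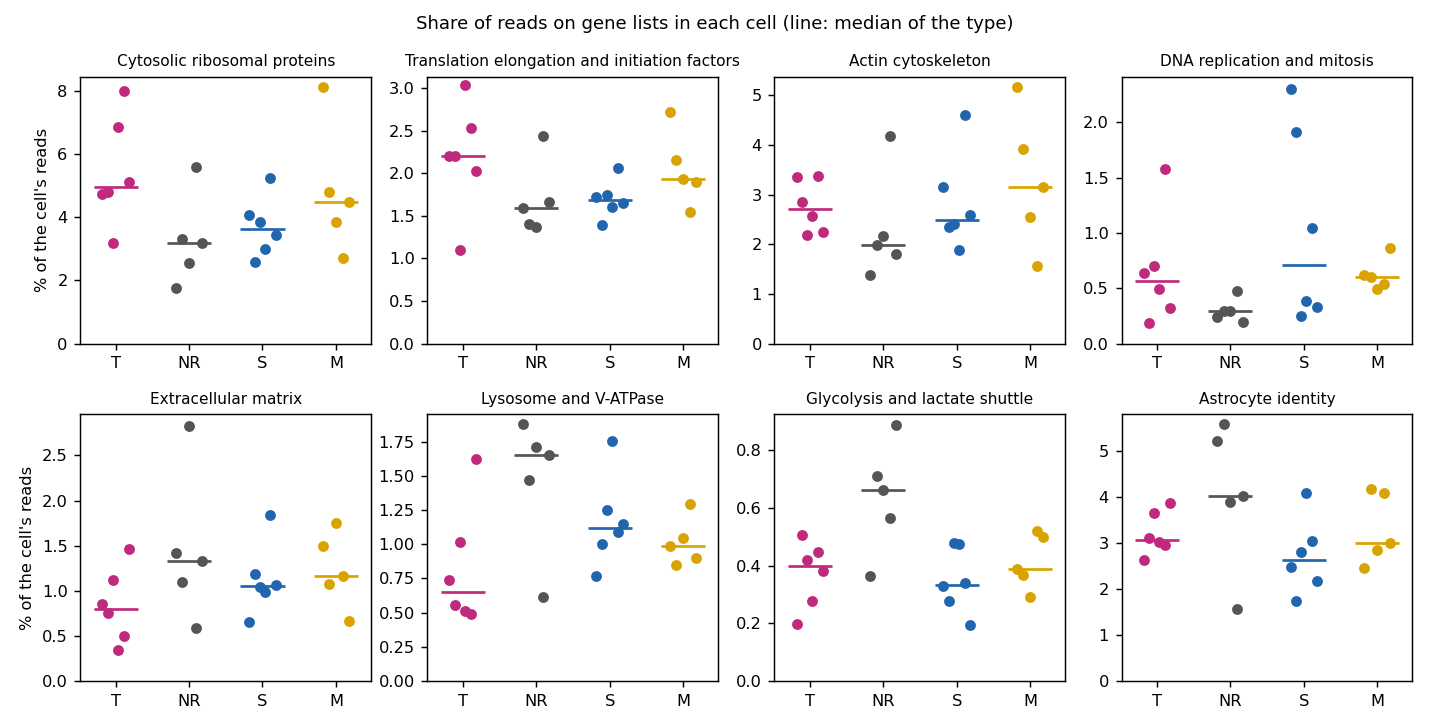
Share of each cell's reads (percent) on 8 gene lists, with 1 point per cell and a line at the median of the type, for T-type (T), NR, S-type (S) and M-type (M) cells. Ribosomal proteins took 3.19 to 8.01% in T-type and 1.75 to 5.59% in NR cells, and lysosome genes took 0.490 to 1.62% and 0.616 to 1.88%.

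Extracellular matrix genes were lower in T-type cells. Of 89 genes 33 passed the filter. Of these 19 (57.6%) were at least 2-fold lower and 3 (9.09%) higher, against 20.6% and 29.3% of all genes. Their median was -1.34 (-1.66 to -0.99 without any 1 cell). The list has long transcripts, with a median of 5164 bases, and the genes of the quintile that holds this length had -0.02. Fibronectin (Fn1) was at 845, 3950 and 21949 in T-type cells and at 76309, 20420, 45265, 6273 and 9819 in NR cells, a ratio of -2.24 that was -1.61 without NR cell 1 and -3.11 without T-type cell 3. Osteopontin (Spp1) had the lowest ratio, -4.45 (-6.02 to -3.96 without any 1 cell), with 0, 6.74 and 118 against 1291, 1141, 43.1, 504 and 20.4. The secreted matrix-associated proteins Sparc and Ctgf, among the more abundant members, had ratios of 1.06 (0.33 without T-type cell 2) and 0.07. The median of the list against the same NR cells was -0.60 for the S-type and -0.49 for the M-type cells.

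Lysosomal genes had the same sign. Of 42 lysosome and proton pump genes 15 (35.7%) were at least 2-fold lower, against 20.6% of all genes, and 4 higher (median -0.55, beside -0.42 for the S-type and -0.79 for the M-type cells). Cathepsin L (Ctsl), a lysosomal protease, was at 2269, 11636 and 39069 in T-type cells and at 54327, 23553, 53286, 11927 and 45449 in NR cells. Cathepsin B (Ctsb) was at 1912, 6749 and 38536 against 27106, 24039, 14397, 7118 and 25423, and cathepsin D (Ctsd) had a ratio of -1.39. Lamp1, of the lysosomal membrane, had -0.41 with wide overlap. Npc1, which exports cholesterol from lysosomes, had the lowest value, -3.58 (-4.68 to -2.82 without any 1 cell), with 0, 25.1 and 235 against 2018, 774, 783, 206 and 38. Glycolysis and the lactate shuttle had 5 of 18 lower (27.8%) and 2 higher (11.1%), against 20.6% and 29.3% of all genes. Their median was -0.45 beside 0.22 for all genes. With medians over cells it was close to all genes, at -0.34 beside -0.30. The S- and M-type medians of the list were -0.94 and -0.76. They took 0.197 to 0.506% of T-type reads and 0.364 to 0.890% of NR reads. The lactate transporter Slc16a1 was at 8.42, 209 and 1004 in T-type cells and at 5983, 3156, 1089, 712 and 10386 in NR cells, and the glycolytic enzyme Pgk1 at 1158, 6434 and 9431 against 3750, 8865, 11088, 8273 and 17936. For Slc16a1 the ratio was -3.75 (-4.57 to -3.11 without any 1 cell), and the highest T-type cell lay above NR cell 4 alone.

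The calcium pathway itself was thinly read. Of 18 genes of ER calcium release, uptake and store-operated entry 8 passed the filter, and the others were read in too few cells to compare. Beside 29.3% higher and 20.6% lower among all genes, none of the 8 was at least 2-fold higher and 3 (37.5%) were lower. These were Stim2, the sensor of ER calcium, and the inositol trisphosphate receptors Itpr1 and Itpr2. Stim2 was at 0, 13.7 and 266 in T-type cells and at 872, 809, 736, 273 and 14.8 in NR cells (ratio -2.82, -3.82 to -2.56 without any 1 cell). Itpr1 was at 3.63, 24.2 and 2776 against 2984, 1453, 1926, 1752 and 5928 (ratio -2.10, -3.61 to -1.63 without any 1 cell, and -5.43 with geometric means), and T-type cells 3 and 6 at 2776 and 1092 lay far above the other T-type cells, which were at 35.6 and below. Itpr2, the main receptor form of astrocytes, was at 0, 29.8 and 152.7 against 1173, 26.1, 157.5, 0 and 22.2, and its ratio of -2.53 was -0.10 without NR cell 1. The ER pump Atp2a2 had -0.17 and the ER membrane protein Tmbim6 -0.35. The list median was -0.26 and the reads it took were 0.0417 to 0.277% in T-type and 0.109 to 0.261% in NR cells.

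Further along the pathway the values were mixed. Gq signalling and phospholipase C genes (19 of 44 tested) had 5 higher and 8 lower with a median of -0.67, which was 0.23 over genes read in all 11 cells. Plcd1, a calcium-sensitive phospholipase C, did not overlap between the types, at 0, 8.75 and 56.5 in T-type cells and at 173.6, 156.6, 1085, 188.99 and 325 in NR cells. The endothelin receptor Ednrb was at 1986, 8784 and 18209 against 20862, 6071, 4668, 1041 and 2533. The Gq subunit Gnaq had 1.46, and 0.10 without T-type cell 2. Plasma membrane calcium genes (12 of 34 tested) had 2 higher and 5 lower (median -0.16), with the pump Atp2b1 at -1.41 and at -0.66 without NR cell 5. The sodium-calcium exchanger Slc8a1 was at 0, 48.5 and 237 against 1032, 234, 1357, 1.2 and 14.8, with NR cells 2, 4 and 5 within the T-type range (ratio -2.88, -3.77 to -2.16 without any 1 cell). Mitochondrial calcium genes (7 of 8 tested) had 1 higher, the porin Vdac1 at 1.73 (0.98 without T-type cell 2), and 1 lower. Calmodulin, its kinases and calcineurin (23 of 31 tested) had 4 higher and 5 lower (median 0.02). Among them Calm2, a calmodulin gene, had a ratio of 0.81, and the calcineurin subunit Ppp3cc was at 0, 3.64 and 12.2 against 173.6, 132, 834, 111 and 4.64. Over these 5 lists together, 12 of 69 tested genes (17.4%) were at least 2-fold higher in T-type cells and 22 (31.9%) at least 2-fold lower, with a median of -0.18, beside the 29.3% and 20.6% of all genes.

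Genes that handle EtOH and its products were also split. Of 13 tested genes of ethanol and acetaldehyde metabolism 2 (15.4%) were at least 2-fold higher and 4 (30.8%) lower (median -0.39). The shares of all genes were 29.3% and 20.6%. Adh5, an alcohol dehydrogenase that acts on the glutathione adduct of formaldehyde, was at 333, 4493 and 14647 in T-type cells and at 1843, 1846, 1177, 1042 and 9034 in NR cells. Aldh9a1 had a ratio of 2.00, which was 1.08 without T-type cell 6 and 3.25 without NR cell 2. Aldh1a1, the cytosolic aldehyde dehydrogenase, was at 1.82, 1088 and 19748 against 6015, 66894, 15642, 83.7 and 25967, with NR cell 2 the highest of all and NR cell 4 below most T-type cells. Its near relative Aldh1a7 was at 0, 42.1 and 222 against 1626, 1082, 571, 5277 and 2349 without overlap (ratio -4.74, -5.35 to -4.11 without any 1 cell), and reads of these closely related genes may be shared. Antioxidant genes had 12 of 36 higher (33.3%, close to all genes) and 2 lower (5.56%), with a median of 0.36. Ferritin Fth1 was at 0.15 and thioredoxin Txn1 at 2.22, the last at 0.70 without T-type cell 2.

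Stress and early response genes varied from cell to cell. The 24 tested genes of the integrated stress response and autophagy had 11 higher (45.8%) and 3 lower (12.5%), beside 29.3% and 20.6% of all genes. Their median was 0.95, and 0.17 without T-type cell 2, with the transcription factor Atf4 at 1.78. Immediate early genes had 6 of 20 higher (30%) and 5 lower (25%), close to all genes (median 0.06). Egr1 was at 1.94, 1913 and 54087 in T-type cells and at 565, 1277, 750.0, 1.2 and 0.927 in NR cells, where cells 4 and 5 were near 0. Btg2, a gene that restrains division, was at 0, 4.61 and 285 against 1050, 551, 413, 2643 and 25, and Dusp6, a phosphatase of ERK, had 0.03. Interferon, major histocompatibility complex class I and inflammation genes had 5 of 27 higher and 11 lower (median -0.40), although B2m, the invariant chain of class I, had 0.49. The remaining lists were cholesterol synthesis with 7 of 23 higher and 3 lower (0.26), the secretory pathway with 15 of 46 and 5 (0.37), chromatin regulators with 19 of 59 and 15 (0.06) and intermediate filaments with 3 of 5 and 1, whose median of 1.30 was -0.30 with medians over cells and -1.13 with geometric means.

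Genes that separated the types were chosen by rule and ordered by ratio. The rule was no overlap between the 6 and the 5 cells, a mean level of at least 100 and a ratio past 2-fold without any 1 cell. On the higher side 19 genes met it. Width of the gap was no part of the rule. From the lowest T-type to the highest NR cell it was narrow for Ssrp1 (2139 and 2005) and F8a (214 and 198). Outside the ribosome, Ndufb4, a subunit of respiratory complex I, was at 1369, 3288 and 14511 in T-type cells and at 633, 676, 1138, 1053 and 1277 in NR cells. Ssrp1, of the FACT histone chaperone, was at 2139, 4780 and 13369 against 1816, 2005, 629, 1914 and 1099, and Utp6, which acts in the making of the small ribosomal subunit, at 1331, 1699 and 2679 against 1065, 184.9, 113, 239.8 and 317. NR cell 1 was the NR cell closest to the T-type cells for Utp6 and NR cell 2 for Ssrp1. Clic1, a chloride channel protein, was at 1205, 2352 and 3438 against 847, 635, 519, 376 and 1018. F8a, a partner of huntingtin, was at 214, 437 and 1305 against 2.43, 198, 104, 32.9 and 59.3. The largest ratio of the set, 6.59, belonged to Rab27b, a GTPase of secretory vesicles, at 569, 1000 and 86041 against 288, 99.8, 0, 267 and 154.8. Without T-type cell 2 it was 3.24, and the S-type cells ranged from 412 to 10179, over the range of the other T-type cells. The endosomal GTPase Rab5c and the phosphatase subunit Ppp2cb completed the set with ratios of 1.61 and 1.59.

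On the lower side 33 genes met the rule, and the top of that order was made of genes read at or near 0 in T-type cells. Zfp52, a zinc finger protein, was at 0, 2.53 and 32 in T-type cells and at 212, 72.6, 460.2, 1402 and 9949 in NR cells, which left 57 reads in all 6 T-type cells (exact Poisson 95% interval 43 to 74) against 14195 in the 5 NR cells. Its ratio of -7.95 was -5.77 without NR cell 5. Zfp512 and Zfp938, of the same broad class, had -6.19 (-7.66 to -5.44 without any 1 cell) and -5.26 (-9.15 to -4.99). The 107 tested zinc finger transcription factors as a list had 23 genes (21.5%) at least 2-fold higher and 34 (31.8%) lower, with a median of -0.14. The shares of all genes were 29.3% and 20.6%. Mtf2, a Polycomb accessory protein, was at 0, 5.46 and 40.4 against 1731, 499, 359.6, 2103 and 1682, and the S-type cells started at 424, while the M-type cells started at 22.4, within the T-type range. Atm, the kinase of the response to DNA breaks, was at 0, 1.62 and 17.9 against 919, 102, 332, 216 and 282. Slc39a9, a zinc transporter, was at 0.64, 3.11 and 104 against 1629, 939, 276, 294 and 3655. Exoc1, of the exocyst that tethers secretory vesicles, was at 0, 26.4 and 54.7 against 1370, 202, 543, 2337 and 1588. Rngtt, the enzyme that caps nascent transcripts, was at 0, 3.85 and 115 against 1334, 309, 941, 218 and 446, and the predicted gene Gm5577 had -6.05 (-6.98 to -5.50 without any 1 cell). Low levels of these genes were also found outside the T-type. For Zfp52, 4 S-type and 3 M-type cells lay below the highest T-type cell. The same held for 1 and 2 cells with Exoc1 and for 1 and 3 with Rngtt. For Atm it held for 2 S-type and 0 M-type cells. A single read stood for a level of 5.45 in T-type cell 3 and 3.63 in T-type cell 2, against at most 0.927 in an NR cell.

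Neat1 combined a large ratio with a high level. This long noncoding RNA is the scaffold of nuclear paraspeckles and lies on chromosome 19 (5824708 to 5845478, GRCm38). It was at 0, 108 and 6033 in T-type cells and at 9797, 24702, 41310, 21256 and 39572 in NR cells, a ratio of -4.58 (-7.40 to -4.32 without any 1 cell). T-type cell 6 was its highest T-type cell, and 1 T-type cell held no read. The T-type cells held 9953 reads (exact Poisson 95% interval 9758 to 10150) and the NR cells 195361 (194496 to 196229). The S-type cells spread from 1.08 to 40472 and the M-type cells from 599 to 25034, so low Neat1 was also found outside the T-type. Malat1, another nuclear RNA, encoded beside it, did not follow, at 8316, 16913 and 471713 against 16375, 47233, 34407, 13270 and 69682, with a ratio of 1.58 that was -0.01 without T-type cell 2. The 12 tested nuclear and imprinted long noncoding RNAs had 2 higher (16.7%) and 3 lower (25%), beside 29.3% and 20.6% of all genes. Their median was -0.08.

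**Figure D5:**
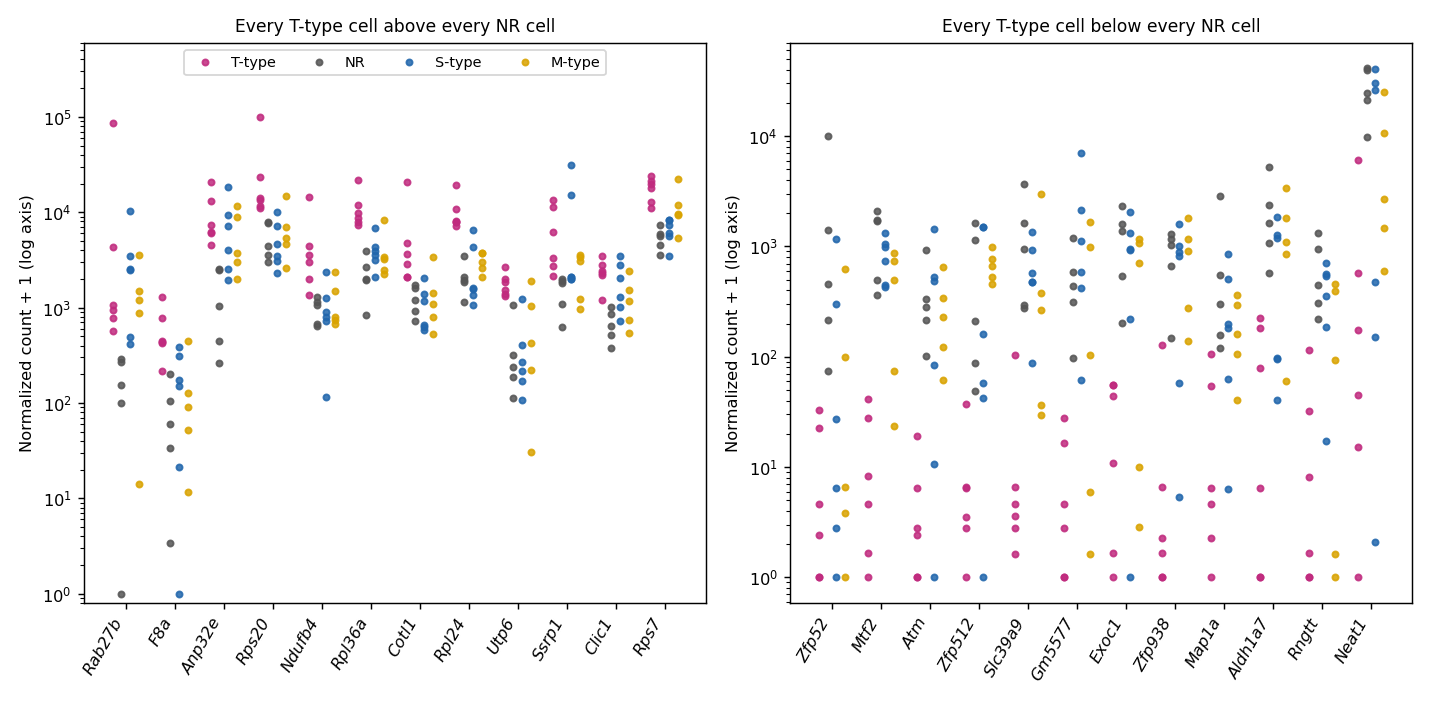
Normalized count plus 1 (log axis) in each of the 22 cells for the 12 genes per direction with the largest ratio among those without overlap between T-type and NR cells. The 6 T-type cells of Rpl24 lie at 7177 and above and all 16 other cells at 6530 and below, and for Neat1 the T-type cells reach 6033 while the NR cells start at 9797.

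Many large ratios came from 1 cell. Of the 2142 genes at least 2-fold higher in T-type cells, 1462 (68.3%) had the majority of their T-type level in 1 cell, and T-type cell 2 was the highest cell for 852 (39.8%). Of the 1504 genes at least 2-fold lower, 750 (49.9%) had the majority of the NR level in 1 NR cell. Without T-type cell 2 the higher genes numbered 1795. Zfp277 had a ratio of 4.69 with 0, 116 and 223588 in T-type cells, and -3.91 without T-type cell 2. The chaperonin subunit Cct4 went from 3.30 to -0.34, the ATP synthase subunit Atp5a1 from 1.93 to -0.54 and the mitochondrial ribosomal protein Mrpl9 from 3.83 to -0.62. The splicing protein Hnrnpa2b1 went from 3.14 to 0.78 and kept its sign. Ratios of this kind describe T-type cell 2 and not the 6 cells.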

How the data were processed

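The deposited count table held the reads of 22 single cells on 23453 genes, as raw exonic read counts that the authors made from amplified RNA (aRNA, 2 rounds) by trimming, alignment to GRCm38 with STAR and counting of uniquely aligned reads with VERSE, a form of HTSeq. Versions and the use of strand are not given in the sources used here, and the libraries carried no molecular identifiers. Exonic counts only were used, and no 2 cells held identical counts.

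Size factors were the median ratio to the geometric mean over 3670 genes read in all 22 cells. Genes with a read in at least 9 of the 11 cells were compared by the log2 ratio of mean normalized counts, with 2-fold as the limit for a call. No test was made because each type is 1 sample. The ratio step was checked on simulated counts with 200 changed genes, where the slope on the true ratio was 1.013. Both types were simulated with the same cell-to-cell spread. The check therefore covers the calculation and not ratios of means in cells as uneven as these. Python 3.11.15, NumPy 2.4.6, pandas 2.3.3, SciPy 1.17.1 and matplotlib 3.10.9 were used, with R 4.3.3 and edgeR 4.0.16 for TMM factors only.

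Genes were named by rule: per direction the 12 with the largest ratio without overlap between types, with a mean level of at least 100 and a ratio past 2-fold without any 1 cell, and of each of 37 lists the 3 with the highest level and the largest ratio per direction. Of the 176 genes this gives, 88 are named, and 18 more (among them Itpr1, Itpr2, Fn1, Cdk4, Rfc3, Ctsd and Atf4) were chosen after their values were seen. The comparison and the lists were chosen with earlier results of these data known. Alternatives were other size factors, CPM, medians and geometric means over cells, other filters and fold limits, thinned libraries and each cell left out. Leaving out T-type cells 2 and 3 together, and ordering genes by their S- and M-type level, were added after seeing the data.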

Additional observations from a re-analysis of the deposited data

Results flagged for a closer look

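The library total, the genes read, the share of the top gene and the share of reads on each gene list were checked in both types for a cell far from the others of its type. Of the 80 groups of values 13 held such a cell, all among the list shares. For independent groups chance gives about 1 in 20, and lists read in the same cells are not independent. NR cell 4 stood apart in 4 lists. Its translation factors took 2.44% of reads (other NR cells 1.37 to 1.67%) and its actin cytoskeleton genes 4.17% (1.37 to 2.16%), while its ER calcium genes took 0.109% (0.225 to 0.261%) and its plasma membrane calcium genes 0.0368% (0.108 to 0.125%). This is also the NR cell with the highest ribosomal protein share, 5.59%, which lay above the T-type median of 4.96%. NR cell 2 had 0.850% on ethanol and acetaldehyde metabolism (others 0.0623 to 0.278%), which is mostly Aldh1a1. NR cell 3 had 0.0212% on the oligodendrocyte lineage (others 0.0421 to 0.0492%) and NR cell 5 had 0.0611% on neuronal genes (others at most 0.0209%).

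Among T-type cells, cell 5 had 1.58% of reads on DNA replication and mitosis (others 0.188 to 0.702%) and 0.0200% on endothelial genes (others at most 0.00148%). T-type cell 1 had 1.04% on chromatin regulators (others 0.377 to 0.581%). T-type cell 2 had 0.366% on Gq signalling and phospholipase C (others 0.224 to 0.273%), and T-type cell 6 had 1.25% on the secretory pathway (others 0.764 to 0.873%). T-type cell 4 had 0.00843% on microglia genes (others at most 0.00143%).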

How the results depend on the processing

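The ribosomal protein, DNA replication, extracellular matrix and lysosome medians kept their sign under every alternative run. The median of all genes moved too, from 0.22 to -0.21 with CPM, -0.30 with medians over cells and -0.75 with geometric means. A sign against 0 is therefore not a comparison with all genes, and the list medians below are to be read beside these values. Higher and lower genes numbered 812 and 578 at 4-fold, 1234 and 530 over genes read in all 11 cells, 3551 and 4098 over genes read in at least 5 of 22 cells, and 1095 and 3274 with geometric means. CPM gave 1205 higher genes and medians over cells 2563 lower genes. Genes without overlap above NR numbered 13 with TMM factors and 2 with CPM, and those below NR 60 with CPM, 10 over genes read in all 11 cells and 102 over genes read in at least 5 of 22 cells. They depend on the number of cells, and leaving out 1 cell gave 30 to 62 above and 51 to 106 below. Without T-type cells 2 and 3 they were 100 and 132.

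With CPM the medians were 0.0531 for respiratory complexes II to V, -0.23 for the proteasome, -0.0752 for antioxidant genes, 0.32 for actin and -0.15 for the secretory pathway. With medians over cells they were -1.42 for Gq signalling, 0.52 for actin, 0.22 for tubulins and -0.30 for intermediate filaments. With geometric means they were -0.071 for cytosolic chaperones, -1.66 for Gq signalling, -1.34 for calmodulin, -1.73 for ethanol metabolism, -1.21 for lysosome, 0.48 for actin and -1.13 for intermediate filaments. Gq signalling was 0.23 over genes read in all 11 cells, plasma membrane calcium -2.26 over genes read in at least 5 of 22 cells, and complexes II to V 0.050 without T-type cells 2 and 3. The cause was not tested.

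Single genes changed sign with medians over cells (Cct4 -0.29, Atp5a1 -0.34, Zfp277 -2.87, Malat1 -1.02, Itpr2 0.19), with geometric means (Zfp277 -1.97) and without T-type cells 2 and 3 (Cct4 -0.32, Mrpl9 -0.30, Atp5a1 -0.45, Gnaq -0.046, Zfp277 -3.59, Malat1 -1.52). Leaving out 1 cell gave ranges of -0.34 to 3.55 for Cct4, -0.62 to 4.74 for Mrpl9, -0.54 to 2.33 for Atp5a1, -3.91 to 5.19 for Zfp277 and -0.010 to 1.96 for Malat1. No paired analysis was possible because the labels give the cells of the types no shared replicate number. With 6 against 5 cells and T-type size factors from 0.183, a gene at a few reads in T-type cells is imprecise, and since the RNA was amplified, counting intervals leave out part of the error.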
